A study of Homo sapiens with 4 samples.

Results

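Replication-dependent histone genes were represented by 72 transcript clusters, the measuring units of the array, out of 65528. They were chosen by symbol: every symbol attached to the cluster had to be of the HIST1H to HIST4H form or of the current forms for replication-dependent H1, H2A, H2B, H3 and H4 genes. Of the 72 clusters, 35 carried 1 symbol and 37 carried several histone symbols and were kept as shared clusters, so that 72 gene symbols were covered in all. By family there were 6 clusters for H1, 17 for H2A, 20 for H2B, 12 for H3 and 15 for H4, and 2 clusters mixed families. The cluster numbers placed 56 on chromosome 6, 15 on chromosome 1 and 1 on chromosome 12, and 2 clusters belonged to annotated pseudogenes.

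The cells carried the labels OPM2 and KMS11, which belong to multiple myeloma lines of human origin. Each line gave 1 array of untreated cells (agent "none") and 1 array of cells given KPT-9274 for 48 h, so there were 4 arrays and no replicate within a line. KPT-9274 is known to act on PAK4, a kinase, and on NAMPT, an enzyme of NAD salvage, and the labels give no time or vehicle for the untreated cells. Values are log2 signals as deposited, and 1 unit is a 2-fold difference.

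Histones H2A, H2B, H3 and H4 form the core around which DNA is wound, and H1 binds the linker between cores. Dividing cells make most of their histone RNA in S phase from clustered genes, and this RNA ends in a stem-loop, bound by the protein SLBP, in place of a poly(A) tail. It is broken down quickly when DNA synthesis stops, which makes it a known companion of replication. The many gene copies of a family encode identical or nearly identical proteins.

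Cell identity was checked with marker genes. Of 8 plasma cell markers, 8 and 7 lay above background on the OPM2 arrays and 4 on each KMS11-labelled array. There the erythroid factor GATA1 read 15.90 and 15.81 against 5.24 and 5.49 in OPM2. The myeloid gene MS4A3 read 16.14 and 15.60 against 5.12 and 5.49. The myeloid list had 4 of 6 markers above background on each KMS11-labelled array and 1 on each OPM2 array. MPO and CSF1R lay under it on all arrays. Of 6 erythroid markers, 5 lay above background on each KMS11-labelled array and 1 and 0 on the OPM2 arrays. These markers go against the KMS11 label, and the arrays are called KMS11-labelled throughout. Background was taken as the 95th percentile of 368 olfactory receptor clusters, 6.61 and 7.39 on the OPM2 control and treated arrays and 6.33 and 6.48 on the KMS11-labelled ones. The array median moved from 5.75 to 6.07 in OPM2 and from 5.68 to 5.76 in the KMS11-labelled cells.

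Sequence just before the start of 5 histone genes is shown first, because these genes carry the contrasting values described below. H2BC15 was higher on both treated arrays, H2BC10 and H2BC21 moved in opposite directions in the lines, H2AC21 had the largest KMS11-labelled change beside TC06000163, and H1-4 was the brightest linker histone. Each stretch holds the 150 bases before the start, 5′ to 3′, from RefSeq on GRCh38.p14. Capitals mark the motifs searched, on either strand. The octamer of H2B promoters is ATTTGCAT and the H1 box is AAACACA. The TATA box was searched as TATAAA, and the box bound by NF-Y was searched as CCAAT.
H2BC15 (chr6:27838419-27838568, plus strand): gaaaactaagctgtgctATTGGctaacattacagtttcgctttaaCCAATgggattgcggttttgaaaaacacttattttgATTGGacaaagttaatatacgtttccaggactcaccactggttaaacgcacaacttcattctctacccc
H2BC10 (chr6:26272781-26272930, plus strand): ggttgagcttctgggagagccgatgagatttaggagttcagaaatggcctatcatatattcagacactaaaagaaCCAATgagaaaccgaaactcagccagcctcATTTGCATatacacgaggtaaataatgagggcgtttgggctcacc
H2BC21 (chr1:149886683-149886832, minus strand): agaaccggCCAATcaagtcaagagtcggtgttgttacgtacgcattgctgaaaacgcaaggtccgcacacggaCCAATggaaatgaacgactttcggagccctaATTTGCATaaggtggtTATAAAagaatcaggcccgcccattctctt
H2AC21 (chr1:149887966-149888115, minus strand): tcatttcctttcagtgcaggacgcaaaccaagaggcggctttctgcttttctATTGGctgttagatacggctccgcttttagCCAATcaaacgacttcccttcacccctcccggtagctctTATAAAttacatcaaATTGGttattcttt
H1-4 (chr6:26156179-26156328, plus strand): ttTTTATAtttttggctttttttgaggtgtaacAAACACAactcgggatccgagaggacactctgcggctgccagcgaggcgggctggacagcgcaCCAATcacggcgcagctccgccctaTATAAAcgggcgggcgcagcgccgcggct

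Promoter windows of 250 bases before the start were found for 65 of the 72 symbols, and they differed by family. The octamer, searched on both strands, was in 14 of 18 H2B windows and 11 of 16 H2A windows, against 1.66% of 27305 windows of all genes. It was in 1 of 12 H3 windows and 0 of 13 H4 windows. The H1 box was in all 6 H1 windows and in 4.95% of all windows, and CCAAT was in all H1, H2A, H2B and H3 windows and in 3 of 13 H4 windows, against 33.0% of all. TATAAA was in 3 of 6 H1, 12 of 16 H2A, 12 of 18 H2B, 9 of 12 H3 and 7 of 13 H4 windows, against 11.1% of all. H2A and H2B genes often lie back to back, so that 1 window can overlap the window of its neighbour, and on opposite strands TATAAA and TTTATA can share letters. A match is a run of letters and not a shown binding site.

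Of the 72 clusters, 48 lay above background on all 4 arrays, 17 on some and 7 on none. Among the 7 were H1-1, the testis genes H2AC1 and H2BC1, the pseudogene H2AC2P, H4C7 and the shared H4 cluster on chromosome 12, TC12001272. The other was the cluster that carries H2BC18 alone. By array, 55 exceeded background in untreated OPM2, 49 in treated OPM2, and 63 and 64 in untreated and treated KMS11-labelled cells. The median histone cluster read 9.45, 9.16, 9.64 and 9.93 in the same order. The OPM2 counts of 55 and 49 rest on unequal cutoffs, 6.61 for untreated and 7.39 for treated cells. The lower count is therefore no measure of genes falling silent. H2BC3 left the count while rising from 6.71 to 7.11 in OPM2, whereas TC06001427, at 6.39 when treated, lay under both cutoffs.

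The brightest was TC01001174, shared by H2AC18 and H2AC19, the neighbouring copies of an H2A gene on chromosome 1. It read 17.92 and 17.16 on the OPM2 control and treated arrays and 17.13 and 17.25 on the KMS11-labelled ones. H2AC20 read 16.74, 16.55, 15.70 and 16.09 in that order, the H2B gene H2BC12 16.43, 15.88, 15.88 and 16.25, and the linker histone H1-4 16.16, 15.27, 16.07 and 16.04. Each was lower on the treated than on the control OPM2 array. The lines overlapped for TC01001174, H2BC12 and H1-4, and H2AC20 was higher on both OPM2 arrays. H4C3, the H4 gene with a bright cluster of its own, read 14.16, 14.29, 15.06 and 15.13, higher on both KMS11-labelled arrays. By the mean over the 4 arrays the brightest H3 clusters were TC06001342, which lists 10 H3 genes of chromosome 6 and read 12.61, 12.15, 13.11 and 13.71, and TC06001353, which lists the same genes and read 11, 10.90, 12.49 and 13.58. Probes for different clusters differ in brightness, so these levels give no ranking of the genes' RNA.

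The 2 lines were compared first, over control and treated arrays together, with limma and cell line and agent in the model. After the dimmest 25% of 24144 clusters with a symbol were left out, 18105 were tested, among them 68 histone clusters. H2AC1, H2BC1, H4C7 and TC12001272 fell to that filter. Of the 68, 20 were higher in the KMS11-labelled cells, where 10.4% of all clusters were, and 7 were higher in OPM2, where 8.08% of all were. Among the 20, H2AC14, TC06000162 and TC06000164 passed the filter through the KMS11-labelled arrays alone, so that a difference was built into their being tested. Among the 7, the cluster with H2BC18 alone lay under background on all 4 arrays, so its call says nothing of a level. TC01003172 lists the same gene, under its older symbol HIST2H2BF, beside HIST2H3PS2. It read 9.85 and 9.71 on the OPM2 control and treated arrays and 8.54 and 9.00 on the KMS11-labelled ones, all above background. Its difference of -1.01 missed the threshold (limma adjusted p = 0.0628). Limma adjusted p-values of the 27 ranged from 0.00497 to 0.0490. With every cluster of the table tested, symbol or not, 9 and 3 passed.

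H3 and H4 clusters on chromosome 6 made up many of the differences. TC06001427, which lists 10 H3 genes whose protein is H3.1, read 7.12 and 6.39 on the OPM2 control and treated arrays and 15.43 and 16.13 on the KMS11-labelled ones. The lines did not overlap. The treated OPM2 value lay under background, so the difference is at least 8.53 (fitted 9.03 ± 0.41, SE, limma adjusted p = 0.00504). The other 8 clusters with the same list of genes read 4.32 to 12.61 in untreated OPM2 and 7.48 to 13.11 in untreated KMS11-labelled cells. All 9 clusters of this list had a higher fitted level in the KMS11-labelled cells, 5 of them past the test, against 10.4% of all clusters. Among the 5 are TC06000162 and TC06000164, which passed the filter through the KMS11-labelled arrays alone. As the 9 list the same genes, they are not separate evidence.

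TC06001348, 1 of 13 clusters that list 14 H4 genes, read 6.43, 7.86, 11.73 and 12.08 in the order OPM2 control and treated, then KMS11-labelled control and treated. Its OPM2 control value lay under background, so the difference is at least 4.67 (fitted 4.76 ± 0.33, SE, limma adjusted p = 0.00944). TC06001428 of the same list read 5.55, 5.43, 9.52 and 9.36, and as both OPM2 values lay under background the difference is at least 2.44. TC06001424 of the same list read 12.48, 11.92, 15.09 and 15.83, a fitted difference of 3.26. In each of these the KMS11-labelled arrays lay above both OPM2 arrays. TC06000162 and TC06000164, with the list of 10 H3 genes, were under background in OPM2 (4.83 and 5.01, and 4.32 and 3.86) and read 9.40 and 8.12, and 7.48 and 7.85, in the KMS11-labelled cells. The differences were at least 1.76 and at least 0.67.

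Clusters of chromosome 1 ran the other way. The H4 clusters TC01001173 and TC01003192 read 13.81 and 13.84 in untreated OPM2, 12.06 and 12.08 in treated OPM2, 10.06 and 10.14 in untreated KMS11-labelled cells and 9.54 and 9.63 in treated ones. Their fitted differences were -3.14 and -3.08 (limma adjusted p = 0.0186 and 0.0195). They list the same genes and read nearly alike on every array, so they are not separate evidence. The 3 clusters that list H3C13, H3C14 and H3C15, which encode the H3.2 form, were likewise higher in OPM2. TC01003189 read 12.72, 11.76, 10.30 and 10.01, a difference of -2.09 (limma adjusted p = 0.0193), with no overlap between lines. H2BC21 read 12.54, 11.24, 9.61 and 10.16, a difference of -2.01 that missed the threshold (limma adjusted p = 0.0731).

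Of the 12 chromosome 1 clusters above background on all arrays, 12 had the higher fitted level in OPM2, 5 of them past the test. The 5 were the 2 H4 clusters and the 3 clusters of H3C13, H3C14 and H3C15, each set with 1 shared gene list. Of the 36 on chromosome 6, 29 had the higher fitted level in the KMS11-labelled cells, 10 past the test. Over all clusters tested, dim ones included, 42.5% were higher in the KMS11-labelled cells. Past the test were 8.08% toward OPM2 and 10.4% toward the KMS11-labelled cells. On chromosome 1 the exceptions were H2AC25, which read 6.74, 6.67, 8.85 and 9.36, and its neighbour H2BC26, which read 6.28, 6.69, 7.62 and 8.43. H2BC26 was under background on both OPM2 arrays and H2AC25 on the treated one. TC06001355, an H4 cluster, was the 1 chromosome 6 cluster past the test toward OPM2, with values of 10.22, 10.74, 8.48 and 8.59 and a difference of -1.95 (limma adjusted p = 0.0163). Copy number of these regions was not measured here, and the markers above differ between the same arrays. Their part in these differences was not tested.

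**Figure D1:**
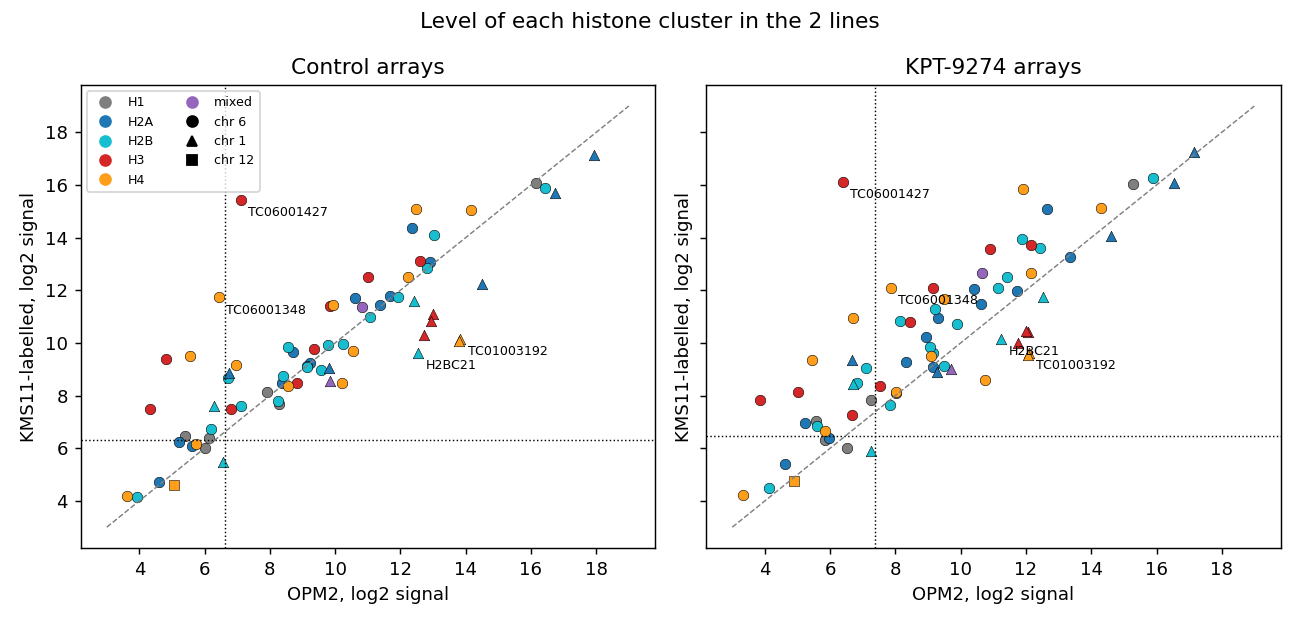
Log2 signal of each of the 72 histone clusters in OPM2 (horizontal) against KMS11-labelled cells (vertical), for the control arrays (left) and the KPT-9274 arrays (right). Colour gives the family and marker shape the chromosome, the dashed line marks equal signal and dotted lines mark background. Triangles of chromosome 1 lie mostly under the dashed line, circles of chromosome 6 mostly on or above it, and TC06001427 reads 7.12 in OPM2 and 15.43 in KMS11-labelled control cells.

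**Figure D2:**
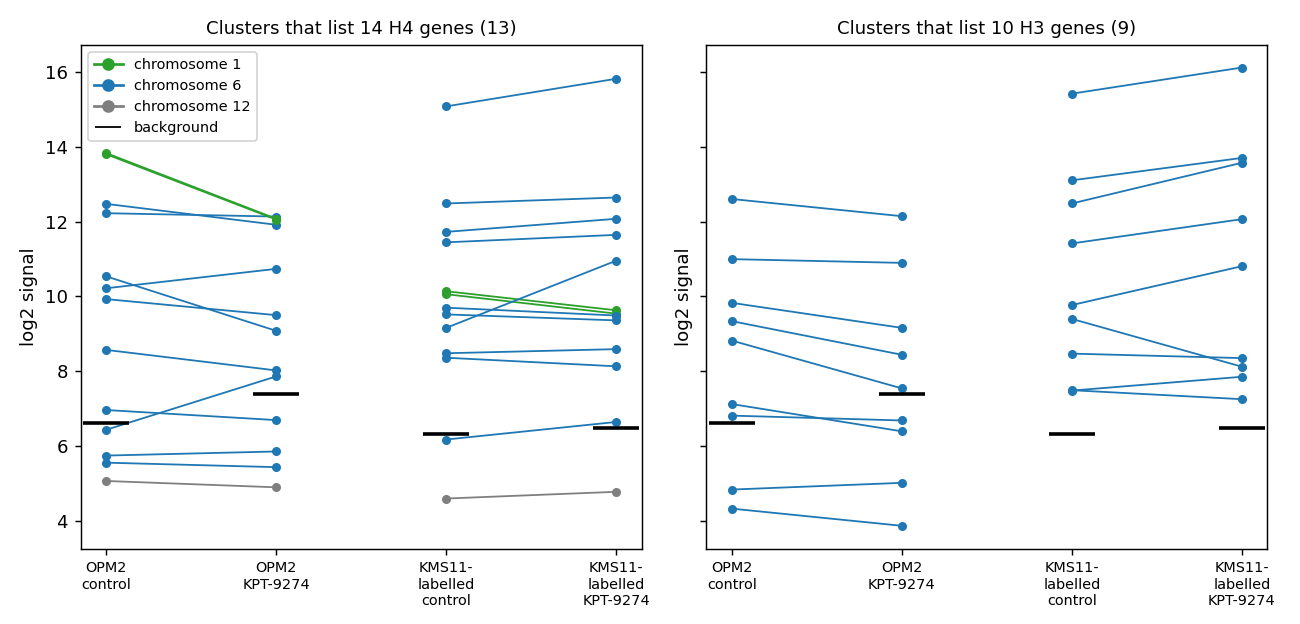
Log2 signal on each array for the 13 clusters that list the same 14 H4 genes (left) and the 9 that list the same 10 H3 genes (right). Each line joins control and KPT-9274 arrays of 1 cell line, black bars mark background. On the left the chromosome 1 clusters are the brightest on the OPM2 control array, at 13.81 and 13.84, while the brightest KMS11-labelled control value, 15.09, is on chromosome 6.

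The second comparison set histone signals of cells given KPT-9274 for 48 h against untreated cells. In OPM2, 45 of 68 tested clusters were lower on the treated array and 23 higher, against 47.2% lower and 52.1% higher among all clusters. In the KMS11-labelled cells 50 were higher and 17 lower, against 54.2% and 44.6%. Of the 32 tested clusters with 1 symbol, 16 were lower and 16 higher in OPM2. In the KMS11-labelled cells 27 of these were higher and 4 lower. The remaining clusters are shared, and many of them repeat a gene list. The median change of the 68, treated minus control, was -0.27 in OPM2 and 0.37 in the KMS11-labelled cells. For all tested clusters the medians were 0.03 and 0.04. In 55 of 68 clusters the KMS11-labelled change lay above the OPM2 change, as it did for 48.3% of all. The arrays differ in scaling: centring each on its median moved the OPM2 median of all clusters to -0.29 and that of the histones to -0.59, and the KMS11-labelled medians to -0.04 and 0.29.

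The most frequent pattern was a lower signal in OPM2 and a higher one in the KMS11-labelled cells, seen in 30 of 68 clusters against 18.9% of all. Higher on both treated arrays were 20 (34.9% of all), and lower on both were 15 (27.8% of all). The order of these counts turned with each array centred on its median, to 10 higher and 18 lower. No histone cluster passed limma's test over both lines, and neither did any other cluster (0 of 18105; 0% in each direction). The smallest limma adjusted p among histones was 0.344. Without adjustment, 5 higher and 3 lower histone clusters had a limma p below 0.05, against 3.97% and 8.57% of all clusters. A difference between the lines' responses could not be tested, since it is the only residual of the model. Fewer cells in S phase and less histone RNA per cell cannot be told apart in RNA from whole cultures.

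**Figure D3:**
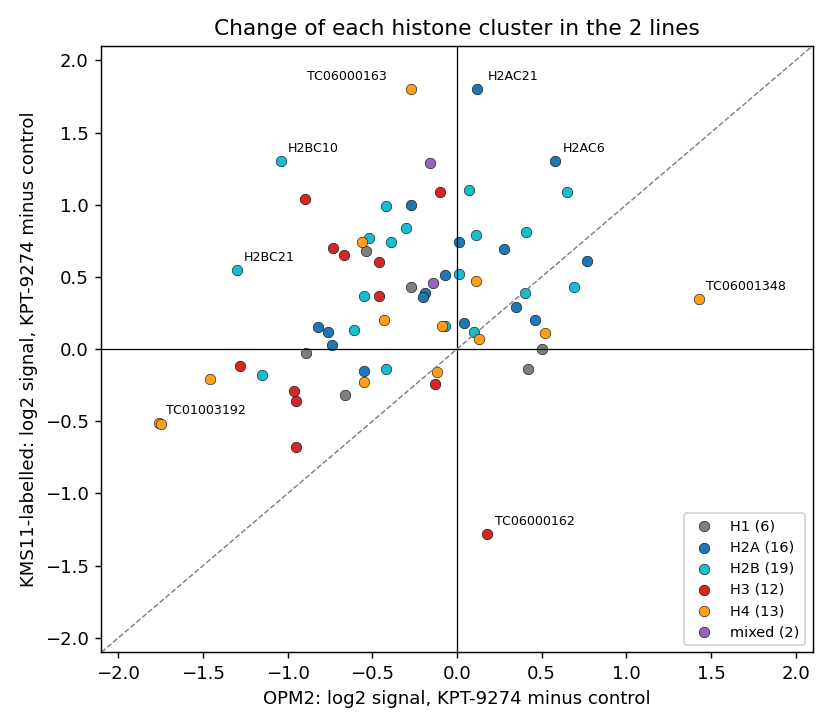
Change in log2 signal, KPT-9274 minus control, of the 68 tested histone clusters in OPM2 (horizontal) and KMS11-labelled cells (vertical), coloured by family, with the dashed line at equal change. Of the points, 55 lie above the dashed line and 30 lie in the upper left, lower in OPM2 and higher in KMS11-labelled cells.

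H2A and H2B, the pair that forms the outer dimers of the core, were mostly higher on the treated KMS11-labelled array: 15 of 16 H2A and 17 of 19 H2B clusters. Of all clusters 54.2% were. In OPM2, 8 of 16 H2A and 8 of 19 H2B clusters were higher, against 52.1% of all. H2AC21 read 12.25 and 14.05 on the KMS11-labelled control and treated arrays and 14.50 and 14.62 in OPM2, changes of 1.80 and 0.12. The treated KMS11-labelled value came close to the OPM2 ones. H2AC6 read 8.71 and 9.29 in OPM2 and 9.66 and 10.96 in the KMS11-labelled cells. It was higher on both treated arrays, by 0.58 and 1.30 (limma adjusted p = 0.359). H2BC15 read 8.41 and 9.06, then 8.75 and 9.84, with changes of 0.65 and 1.09 (adjusted p = 0.344 by limma), and TC06001425, which lists 6 H2A genes, 8.38 and 9.15, then 8.47 and 9.08, with changes of 0.77 and 0.61 (adjusted p = 0.354 by limma). By the smaller of the 2 lines' changes, these 3 were the largest upward among clusters higher in both lines.

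H2BC10 moved furthest apart between the lines. It read 10.25 and 9.21 in OPM2 and 9.97 and 11.27 in the KMS11-labelled cells, so that control arrays lay close together and treated arrays far apart. H2BC21 was lower by 1.30 in OPM2 and higher by 0.55 in the KMS11-labelled cells. H2BC14, with values of 13.03, 11.88, 14.11 and 13.93, was lower by 1.15 in OPM2 and by 0.18 in the KMS11-labelled cells. H2BC11 had 2 clusters that disagreed in the KMS11-labelled cells: TC06001386 read 10.98 and 12.08 there and 11.06 and 11.13 in OPM2, while TC06001385 changed by 0.16 there and by -0.07 in OPM2. TC06001430, which lists 6 H2A genes, read 9.22, 8.95, 9.24 and 10.24. It stood exactly at the 2-fold mark in the KMS11-labelled cells, and its OPM2 change was -0.27.

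Neighbouring H2A and H2B genes that face away from each other share the stretch between their starts. Among pairs measured by clusters of their own, H2BC21 and H2AC20 are 235 bases apart, and in OPM2 the former was lower by 1.30 and the latter by 0.19. Both were higher in the KMS11-labelled cells, by 0.55 and 0.39. H2AC14 and H2BC14, 244 bases apart, changed by 0.74 and -0.18 in the KMS11-labelled cells, with H2AC14 above background on 1 array only. H2BC13 and H2AC13, 243 bases apart, changed by -0.30 and 0.46 in OPM2 and by 0.84 and 0.20 in the KMS11-labelled cells, H2BC13 being under background on the treated OPM2 array. H2AC25 and H2BC26, 229 bases apart, changed by 0.51 and 0.81 in the KMS11-labelled cells. The 2 members of each pair thus read unequal changes on these arrays, which was not tested.

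H3, which carries many of the known chromatin marks, was lower in OPM2 in 11 of 12 clusters, against 47.2% of all clusters, with a median of -0.70. Of the 11, TC06000164 lay under background on both OPM2 arrays, and TC06001427 and TC06000174 on the treated one. The 1 that was higher, TC06000162, lay under background on both. In the KMS11-labelled cells 6 H3 clusters were higher and 6 lower. The 3 clusters of H3C13, H3C14 and H3C15 were lower on both treated arrays, by 0.95 to 0.96 in OPM2 and by 0.29 to 0.68 in the KMS11-labelled cells. TC01001175 of that list read 13.01, 12.06, 11.08 and 10.40 (limma adjusted p = 0.344). The 9 clusters listing the 10 H3.1 genes had a median of -0.46 in OPM2 and 0.60 in the KMS11-labelled cells. TC06001353 of that list was higher by 1.09 in the KMS11-labelled cells and changed by -0.10 in OPM2. TC06004064 read 9.34, 8.44, 9.77 and 10.81, changes of -0.90 and 1.04. TC06001354 of the same list was lower by 1.28 in OPM2, with values of 8.82 and 7.54, and read 8.47 and 8.35 in the KMS11-labelled cells. TC06000162 was the 1 histone cluster at least 2-fold lower in the KMS11-labelled cells, with a change of -1.28 from 9.40. TC06001349, which lists H2AC7 beside H3 genes, read 10.81, 10.65, 11.35 and 12.64, a KMS11-labelled change of 1.29.

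H4, the partner of H3 in the inner tetramer, was lower in OPM2 in 9 of 13 clusters and higher in the KMS11-labelled cells in 8. Of all clusters, 47.2% and 54.2% were. The chromosome 1 clusters TC01001173 and TC01003192, whose values are given above, were lower by 1.75 and 1.76 in OPM2 and by 0.52 and 0.51 in the KMS11-labelled cells (adjusted p = 0.374 and 0.376 by limma). TC06000224 read 10.54 and 9.08 in OPM2 and 9.70 and 9.49 in the KMS11-labelled cells. TC06001348 went the other way in OPM2, from under background at 6.43 to 7.86, and is higher there by at least 1.25 against the control array's background of 6.61. TC06000163 was higher by 1.80 in the KMS11-labelled cells, from 9.16 to 10.96, and in OPM2 read 6.96 and 6.69, the latter under background. H4C3 changed little, by 0.13 and 0.07.

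The linker histones showed no common direction in the KMS11-labelled cells, where H1-4 changed by -0.03. In OPM2 H1-4 was lower by 0.89. H1-2 read 8.29, 8.02, 7.68 and 8.11, changes of -0.27 and 0.43, and H1-5 read 7.91, 7.25, 8.15 and 7.83. Its treated OPM2 value was under background, so its change there is bounded at -0.52 against background, and its KMS11-labelled change was -0.32. H1-3 lay under background on both OPM2 arrays and changed by 0.68 in the KMS11-labelled cells, from 6.37 to 7.05. H1-6, the testis linker histone, lay above background on 1 array, and H1-1 on none.

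In all, 7 histone clusters were at least 2-fold lower in OPM2 and 1 higher, against 5.33% and 2.81% of all clusters. With each array centred on its median, 16 were at least 2-fold lower in OPM2. In the KMS11-labelled cells 10 were at least 2-fold higher and 1 lower, against 1.60% and 4.47% of all. Clusters with 1 symbol gave 3 and 0 in OPM2 and 5 and 0 in the KMS11-labelled cells, and their OPM2 median was -0.03, against -0.43 for shared clusters. The KMS11-labelled medians were 0.41 and 0.28. By chromosome, the OPM2 median was -0.55 on chromosome 1 and -0.27 on chromosome 6, and the KMS11-labelled median 0.12 and 0.37. Among clusters above background on all 4 arrays, the chromosome 1 medians were -0.855 in OPM2 and -0.015 in the KMS11-labelled cells. Those of chromosome 6 were -0.33 and 0.475. The changes of the 68 clusters in one line and in the other had r = 0.28 (Pearson) and rho = 0.29 (Spearman), where all tested clusters had r = 0.35 (Pearson). Many of these clusters share a gene list and all share the same 4 arrays, and clusters are not replicates.

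H1-2, H2AC6, H2BC5, H2BC12 and H2BC21 are known to make polyadenylated transcripts too, in cells that no longer divide. All 5 were higher on the treated KMS11-labelled array, by 0.37 to 1.30, as were 50 of 68 histone clusters and 54.2% of all clusters. In OPM2 2 of 5 were higher, against 52.1% of all, and of these H2BC5 changed by only 0.01. H2BC5 read 9.14, 9.15, 9.09 and 9.61. Their median changes were -0.27 in OPM2 and 0.52 in the KMS11-labelled cells.

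Other genes of the cell cycle were read beside the histones. Of 19 tested S phase genes, 17 were lower on both treated arrays (27.8% of all clusters) and 0 higher on both, with medians of -1.08 in OPM2 and -0.56 in the KMS11-labelled cells, against -0.27 and 0.37 for the histones. Cyclin E2 (CCNE2) read 11.14, 8.79, 9.10 and 7.74, the fork protein TIPIN 11.50, 9.32, 10.93 and 9.59, and the licensing factor CDC6 11.89, 10.49, 11.90 and 10.62. Each was lower on both treated arrays. Of 19 mitotic genes, 16 were higher on both (34.9% of all) and 0 lower on both, with medians of 0.49 and 1.34. ANLN, TTK and DLGAP5, which act in cytokinesis, the spindle checkpoint and spindle assembly, were higher by 1.60 and 1.70, by 1.53 and 1.75 and by 1.22 and 1.74. No member of these lists passed limma's test after adjustment, while 12 S phase genes (lower) and 11 mitotic genes (higher) had an unadjusted p below 0.05, as 8.57% (lower) and 3.97% (higher) of all clusters did. In each line the histone median lay between those of the S phase and mitotic lists. So did the median of all tested clusters, 0.03 in OPM2 and 0.04 in the KMS11-labelled cells, so this place is not particular to histones.

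Genes that make and process histone RNA were mostly lower on both treated arrays, 15 of 18 tested against 27.8% of all clusters, with medians of -0.46 and -0.25. SLBP, which binds the stem-loop, read 10.77, 10.17, 11.44 and 10.50, and CASP8AP2, a processing factor, read 10.21, 9.54, 11.51 and 10.66. NPAT, the activator of histone genes, read 10.34, 10.07, 12.27 and 11.17. All were lower after treatment, SLBP by 0.60 and 0.94, CASP8AP2 by 0.67 and 0.85 and NPAT by 0.27 and 1.10. Ranked by the smaller of the changes in the lines, the first were the cap-binding protein NCBP1, which read 11.62, 10.64, 11.86 and 10.63, the cleavage factor CSTF2, lower by 1.27 and 0.76, and SRRT, which works with the cap-binding complex, lower by 0.69 and 0.78. HINFP, a factor for H4 genes, was the 1 member higher in both, by 0.37 and 0.41. In the untreated and treated arrays together 3 of the 18 passed the test as higher in the KMS11-labelled cells, against 10.4% of all clusters. They were NPAT, CASP8AP2 and CPSF3, by 1.52, 1.21 and 1.28 (limma adjusted p = 0.0403, 0.0288 and 0.0304).

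Among histone supply and assembly genes 10 of 14 tested were lower on both treated arrays (27.8% of all clusters) and 1 higher (34.9% of all), with medians of -0.43 and -0.21. CHAF1B, a subunit of the assembly factor CAF-1, read 10.02, 8.63, 11.92 and 10.96, SUPT16H of the FACT complex 13.68, 13.08, 14.12 and 12.98, and the acetyltransferase HAT1 11.09, 10.65, 11.16 and 10.26. The 3 were lower on both treated arrays. Histones outside the set chosen by symbol, measured in clusters of their own, gave 6 tested. They included H2AX, which read 9.98, 8.93, 9.95 and 9.10, and H2AZ1, which read 10.82, 10.50, 11.43 and 11.09. Of the 6, 4 were lower on both treated arrays, but H1-10 among them lay under background on every array. The centromere histone CENPA was higher by 0.31 and 0.63. MACROH2A1 was lower by 0.68 and 0.70. In none of these lists did a member pass limma's adjusted test for the treatment. Unadjusted limma p-values below 0.05 were found for 6 of the processing, 4 of the assembly and 2 of these other histone genes. Each was lower, against 8.57% of all clusters.

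**Figure D4:**
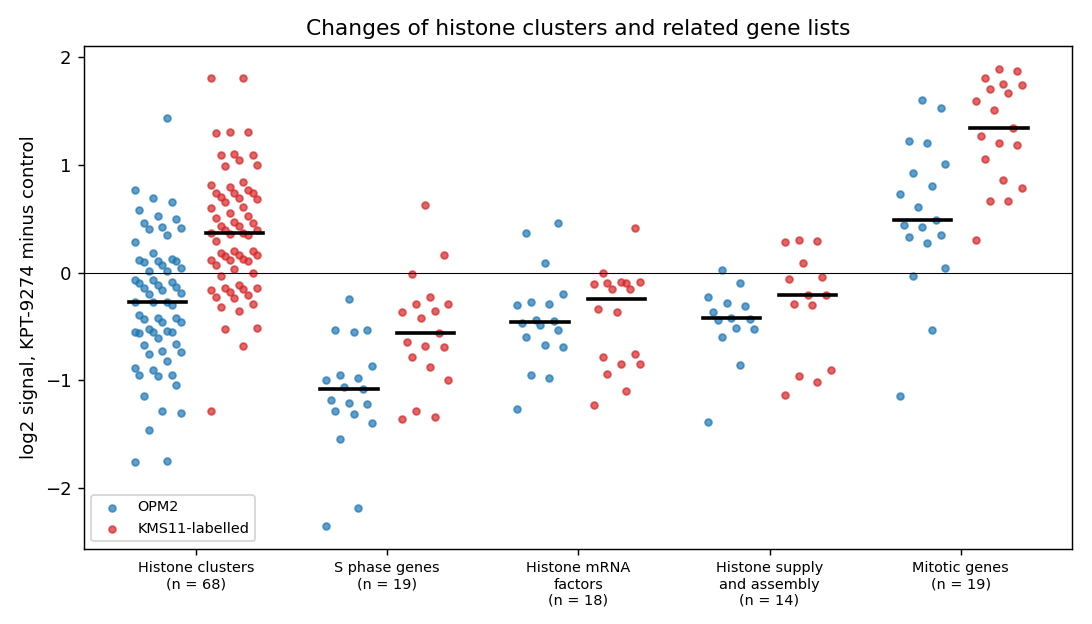
Change in log2 signal, KPT-9274 minus control, for histone clusters and 4 related gene lists, with OPM2 in blue and KMS11-labelled cells in red. Each point is a cluster or gene and bars are medians. Histone medians are -0.27 and 0.37, between S phase genes (-1.08 and -0.56) and mitotic genes (0.49 and 1.34). The medians of all tested clusters, 0.03 and 0.04, not drawn, also lie between them.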

How the data were processed

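Total RNA of 4 samples was measured on whole-transcript arrays. Per the labels' protocols it was extracted with a miRvana kit and converted with the WT Plus kit. The deposited log2 signals come from the authors' use of Transcriptome Analysis Console, as the submitters' processing notes name it. How it summarized and normalized them, and the build, is not given in the sources used here. All 4 value columns belong to labelled samples, and 0 were left aside.

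Of 65528 clusters, 22755 had 1 symbol, 1389 several and 41384 none. Symbols were updated through a GRCh38.p14 gene table. The chromosome digits of cluster numbers matched that table for 21705 of 21743 clusters with 1 symbol. A shared cluster is given by its number, since no single gene can be named for it.

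Log2 values were fitted as deposited in limma 3.58.1 (R 4.3.3) with cell line and agent as terms (1 residual and 2.82 prior degrees of freedom), two-sided, with Benjamini-Hochberg adjustment over 18105 clusters whose mean log2 signal was above 5.41. Clusters with several symbols stayed in. The line is the block, as arrays of a line share its cells. Within a line there is no test. Nothing tells of separate cultures. The only residual is the difference between the lines' treatment changes, pooled with the prior. The p-values of both contrasts rest on it and not on a spread between cultures. The number of arrays, 4, limits the precision. The fit was tested on simulated data. Changes that start or end under background are bounds against it. Members, lists and background were chosen with earlier results of these data known. Named were the 2 brightest clusters per family, up to 3 shared changes each way, those at least 2-fold apart within a line with an array above background, the 5 top line differences in each direction, 3 shared changes from each other list, and SLBP, NPAT, CASP8AP2, H2AX and H2AZ1; remaining members are named to account for them. Alternatives were 3 scalings, 2 filters, 2 feature sets, another prior, no line block, other member sets and other backgrounds. In the setting with no line block, the treatment was fitted without the line and the line without the agent.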

Additional observations from a re-analysis of the deposited data

Results flagged for a closer look

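Among 48 histone clusters above background on all arrays, 6 (12.5%) were lower by at least 0.5 in OPM2 and higher by at least 0.5 in KMS11-labelled cells, each on 1 pair of arrays per line. Of all 7993 tested clusters above background on all arrays, 110 (1.38%) did the same. The difference between the lines was not tested. The KMS11-labelled change exceeded the OPM2 change by 2.34 for H2BC10, 1.85 for H2BC21, 1.29 for H2BC17, 1.94 for TC06004064, 1.32 for TC06001429 and 1.30 for TC06001424. The first 3 are H2B genes, the next pair lists H3 genes and the last H4 genes. H2BC17 read 11.94 and 11.42 in OPM2 and 11.74 and 12.51 in the KMS11-labelled cells.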

How the results depend on the processing

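The medians of histone changes kept their sign under all alternatives run, from -0.59 (median centring) to -0.03 (clusters with 1 symbol) in OPM2 and from 0.29 (median centring) to 0.44 (quantile normalization) in the KMS11-labelled cells. With values raised to background the OPM2 median was -0.10. The OPM2 cutoffs are unequal, 6.61 for untreated and 7.39 for treated cells. A cluster under background on both arrays, such as H1-3, is thereby given a change of 0.77. The -0.10 is therefore no check of the sign. The treatment test called 0 histone clusters under every setting run. Median centring gave 16 clusters at least 2-fold lower in OPM2 and, in both lines, 10 higher and 18 lower, and a minimum change of 0.25 gave 9 higher and 6 lower in both. With clusters of 1 symbol alone, fewer entered: 3 were lower in both lines, 3 were at least 2-fold lower and 0 higher in OPM2, and 5 higher and 0 lower in the KMS11-labelled cells. The line test called 12 clusters higher in KMS11-labelled cells with no filter. With all clusters of the table it called 9 and, in OPM2, 3, and with 1 cluster per gene 8 and 1, with fewer members entering; the cause of the other moves was not tested. With the agent left out of the model, the line test called 17 and 7. The line difference of H2BC12 turned to 0.10 under median centring and 0.13 under quantile normalization, and that of TC06001425 to -0.0562 under quantile normalization. No call was possible with an array left out, as no residual degree of freedom remains. Signals near background, mostly in OPM2, limit what the 24 clusters not above it on every array show. Medians by chromosome and for clusters above background on all arrays, chosen after seeing the data, kept their sign under the 3 scalings and 2 filters. The KMS11-labelled median of chromosome 1, 0.12 over its tested clusters, was -0.015 over those above background on all arrays.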
